A study of Mus musculus with 20 samples.

Results

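L-buthionine sulfoximine (BSO) was added to a tryptophan-free diet of mice that lack *Cse*, and the comparison described here sets the 4 livers of Cse-/- mice on the no-Trp diet with BSO (mice av09 to av12) against the 3 livers of Cse-/- mice on the no-Trp diet alone (av14 to av16). The 7 livers were taken by genotype, diet and BSO, as the labels give them and the study's list of mice ties them to columns of the counts, out of 20 livers in 6 groups. *Cse*, whose gene symbol is *Cth*, encodes cystathionine γ-lyase, the enzyme that releases cysteine from cystathionine, and BSO inhibits γ-glutamyl cysteine synthase, the enzyme of the first step of glutathione (GSH) synthesis. Genotype, tryptophan deprivation, sex and time were therefore the same in both groups, and BSO in the diet was the difference between them.

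All mice were male, of a mixed 129 and C57BL/6 background, at least 9 weeks old, and *Cse* was inactivated in the whole body. By the study's account of its liver RNA-seq, mice received a calorie-restricted control diet for 3 days before the shift to the test diet. Calorie restriction went on after the shift, and the livers were collected 2 days after it. The diets were mixtures of purified amino acids that lacked tryptophan (no-Trp) or cystine (no-Cys). For reference there were 4 Cse-/- livers from the no-Cys diet, and 2, 3 and 4 Cse+/- livers from the control, no-Trp and no-Cys diets. The labels call the control genotype WT, whereas the list of mice gives it as heterozygous. Neither Cse-/- livers from the control diet nor livers of mice given BSO without tryptophan deprivation were analysed here, and the dose of BSO is not stated in the sources used here.

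GSH is a tripeptide of glutamate, cysteine and glycine that hepatocytes make in large amounts, and glutamate–cysteine ligase (the catalytic subunit *Gclc* and the modifier *Gclm*) sets the pace of its synthesis. The transcription factor NRF2 is held back by KEAP1, whose cysteines sense electrophiles and oxidants. When that restraint is lifted, NRF2 binds antioxidant response elements and induces the enzymes of phase II detoxification, GSH synthesis and thiol reduction, which form the core of the oxidative stress response (OSR) in liver. The integrated stress response (ISR) is a separate programme, set off among other things by amino acid shortage and carried by ATF4.

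Counts on genes ranged from 14054270 to 57986121 in the 4 BSO livers and from 16088508 to 23246393 in the 3 no-Trp livers. Each mouse gave 1 library, so n counts mice. Values below are CPM, each gene's counts relative to the library total after TMM scaling, and fold changes are log2 differences of BSO minus no-Trp from edgeR with their standard errors (SE). *Cth* was at 8.36 to 14.4 CPM in the 7 livers and at 88.4 to 332 CPM in Cse+/- livers. The defining markers of hepatocytes were present at a summed 82206 to 96291 CPM. Of the marker genes of Kupffer cells, other leukocytes, endothelium, stellate cells and bile duct, none was called at an adjusted p under 0.05. Fewer cells of a type and less RNA per cell cannot be told apart in these bulk livers.

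Of 14759 genes tested, 72 were higher with BSO (0.488%) and 45 were lower (0.305%), which is 0.793% in all at an adjusted p under 0.05. Counts of called list members are to be read against these shares. With upper-quartile scaling the split was 70 higher and 67 lower. The ranges of the 4 and 3 livers did not overlap for 955 genes with BSO above (6.47%) and for 904 with BSO below (6.13%), among them 115 of the 117 called genes. At an unadjusted p under 0.05, 965 genes were higher (6.54%) and 961 lower (6.51%), the shares against which such counts of list members are to be read. Changes of at least 2-fold made up 26 of the higher and 18 of the lower calls. The higher genes were led by glutathione transferases and other enzymes of the OSR, and the lower ones held enzymes of fatty acid (FA) and cholesterol synthesis. The number of calls moved with the libraries used. It was 36 without av09, 48 without av11, 50 without av15 and 74 without av12, but 172 without av10. The 117 calls kept their direction whichever library was left out, but they were called on these same livers, so this is no independent support. In all 7 such fits 29 of them (21 higher, 8 lower) kept the call.

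**Figure D1:**
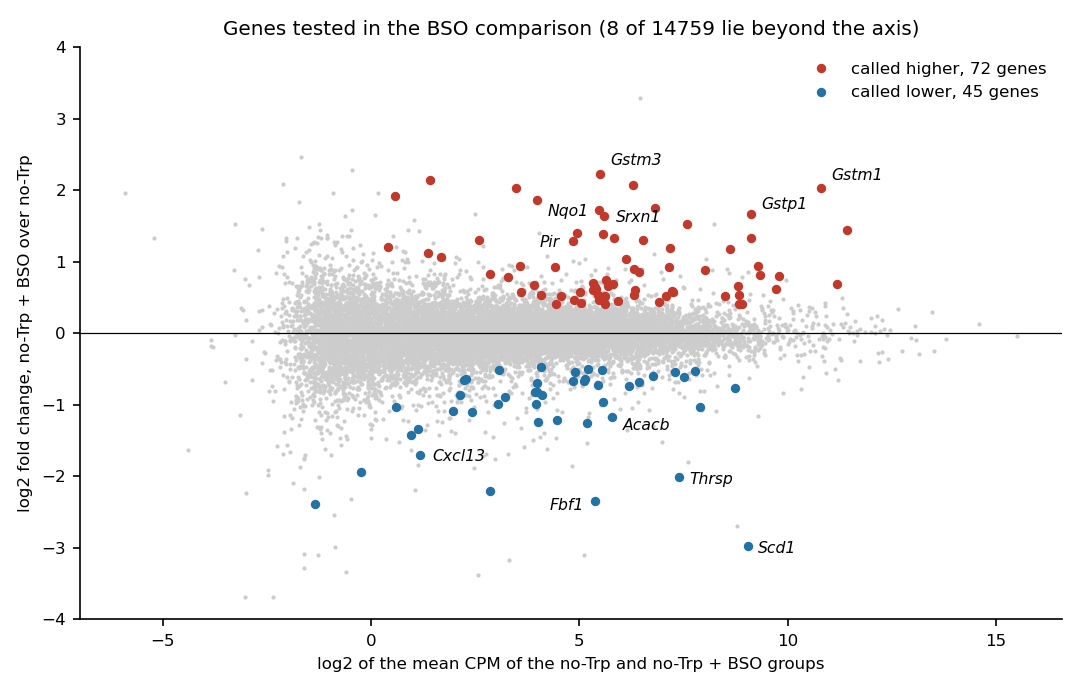
Log2 fold change of every gene (vertical axis) against the log2 of the mean CPM of both groups (horizontal axis), with the 72 higher and 45 lower genes coloured and the others grey. A total of 8 genes, of which 1 was called (*Mup2*), lie beyond the vertical axis, and 1 gene at 0 in all 7 livers is not drawn. The glutathione transferases stand at the top over a wide range of expression, and *Scd1* is the lowest of the called genes drawn.

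The 8 OSR genes that the study names were all higher with BSO in fold change, by 1.33 (*Gstm4*) to 2.23 (*Gstm3*) on the log2 scale with a median of 1.68, against a median of -0.0048 over all genes tested. A total of 7 of the 8 were called higher, where 0.488% of all genes were, and in all 8 the lowest BSO liver lay above the highest no-Trp liver. The study shows these genes as ones that respond to cysteine deprivation in Cse-/- livers, and whether the BSO livers also entered its choice is not clear from it, so their direction is not taken as independent evidence. *Srxn1*, which encodes sulfiredoxin, the reductase of overoxidised peroxiredoxins, had the smallest p of any gene. It was at 77.9, 57.4, 80.8 and 74.6 CPM in BSO livers av09 to av12 and at 21.9, 25.5 and 22.9 CPM in no-Trp livers av14 to av16. The lowest BSO liver was thus more than double the highest no-Trp liver, for a fold change of 1.64 (SE 0.15, adjusted p = 9.59e-06).

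*Nqo1* encodes a quinone reductase that is a standard readout of NRF2. It was at 27.7, 13.3, 27.2 and 30.7 CPM with BSO and at 5.74, 6.30 and 8.37 CPM without. No BSO liver reached down to the no-Trp range, although av10 stood well below the other 3, and the fold change was 1.87 (SE 0.26, adjusted p = 0.00154). *Gstm1*, the most abundant of the mu-class glutathione transferases by counts, was at 4047, 1510.3, 3257 and 2690.5 CPM with BSO and at 746, 523 and 843 CPM without. Its fold change was 2.03 (SE 0.27, adjusted p = 9.89e-04), with av10 again the lowest of the BSO livers. *Gstm3*, of the same cluster on chromosome 3, was at 101, 33.0, 87.0 and 75.7 CPM with BSO and at 12.5, 10.3 and 24.4 CPM without, a fold change of 2.23 (SE 0.38, adjusted p = 0.00662).

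*Gstm2* (1.38, SE 0.21, adjusted p = 0.00241) and *Gstm4* (1.33, SE 0.22, adjusted p = 0.00436) rose with less spread among the no-Trp livers, where *Gstm2* was at 25.7 to 27.3 CPM and *Gstm4* at 30.7 to 33.9 CPM. With BSO they were at 46.2 to 88.2 CPM and at 49.4 to 98.6 CPM. *Gsta2*, of the alpha class, was at 69.8, 31.3, 73.1 and 99.8 CPM with BSO and at 28.7, 12.6 and 20.8 CPM without (1.72, SE 0.33, adjusted p = 0.0137). *Gsta1* was at 2.01, 1.88, 4.14 and 2.72 CPM with BSO and at 0.647, 1.62 and 0.746 CPM without, and was the one OSR gene that did not pass (1.44, SE 0.44, adjusted p = 0.131, 0.0431 by DESeq2). *Gsta1* shares 87.9% of the 61-base words of its transcripts with other genes, chiefly *Gsta2*, and *Gsta2* shares 43.5%, so how reads were divided between them is uncertain. For *Gstm3* the shared part was 25.7%, for *Gstm1* 15.2%, and for *Gstm4*, *Nqo1* and *Srxn1* 0.

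Of the 7 called OSR genes, 5 (*Srxn1*, *Nqo1*, *Gstm1*, *Gstm2* and *Gstm4*) kept the call whichever liver was left out. *Gstm3* missed it without av15 (adjusted p = 0.0525), and *Gsta2* missed it without av15, av16 or av09, with a highest adjusted p of 0.0856.

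**Figure D2:**
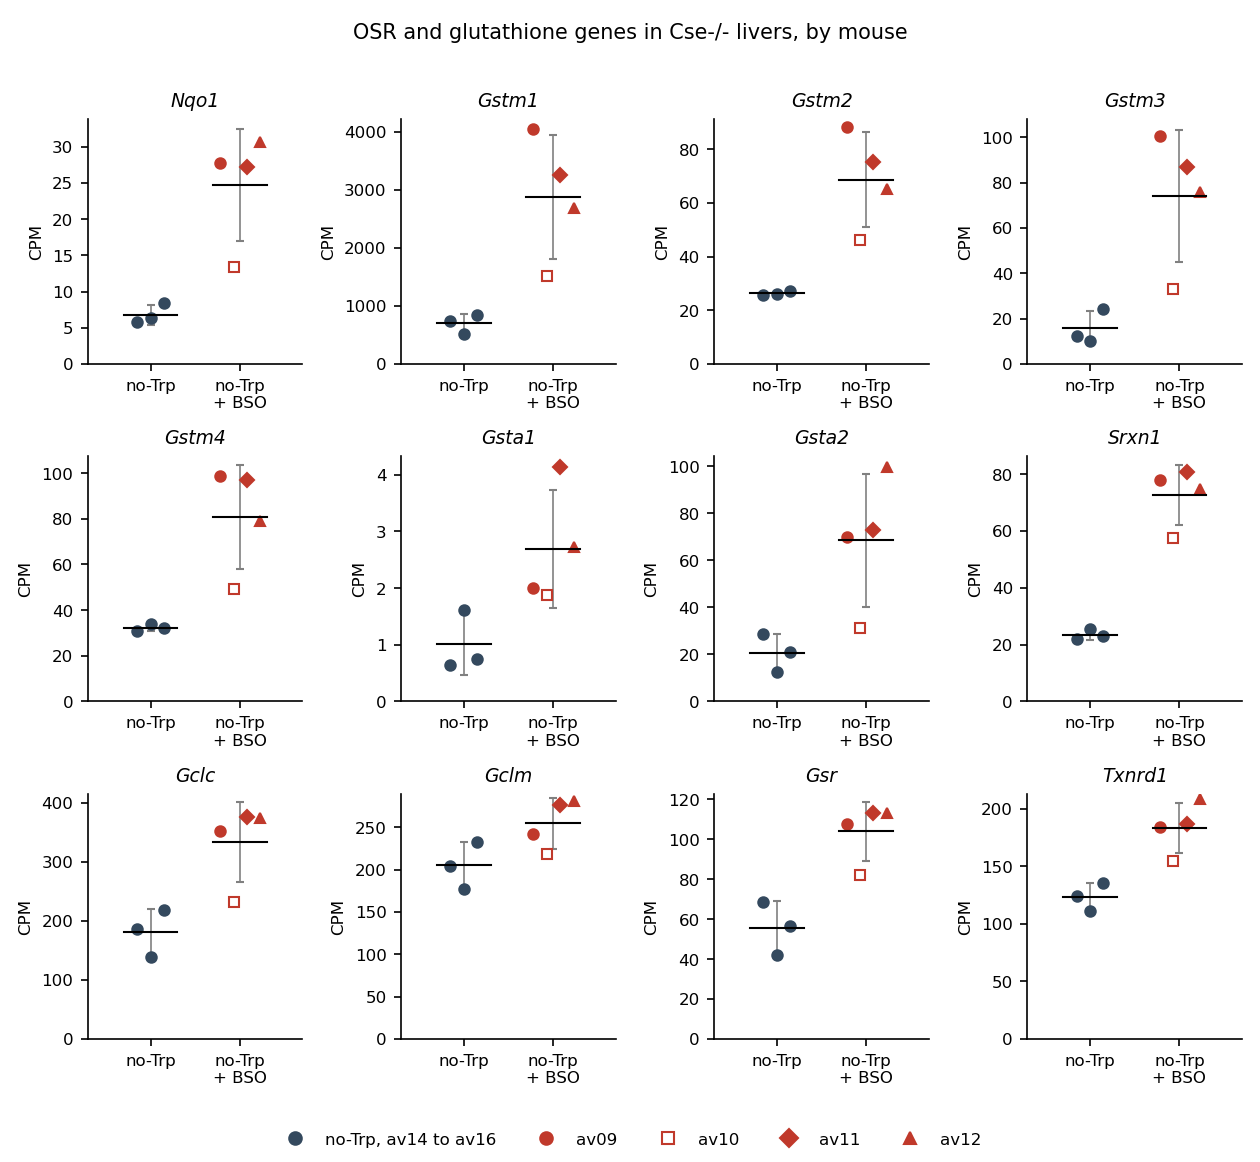
CPM (vertical axes, from 0) of the 8 OSR genes and of *Gclc*, *Gclm*, *Gsr* and *Txnrd1* in the 3 no-Trp livers and the 4 BSO livers, with 1 point for each mouse, the group mean as a line and the SD as a bar. BSO liver av10 (open square) is the lowest of its group in every panel but lies above the no-Trp range in all panels except that of *Gclm*.

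Of 16 transferases tested outside the OSR list, 2 were called higher, where 0.488% of all genes were, and none lower, with a median of 0.11. Both were of the pi class. *Gstp1* was at 1154, 505, 985 and 751 CPM with BSO and at 301, 170.0 and 328 CPM without (1.67, SE 0.28, adjusted p = 0.00570). *Gstp2* was lower in level and also rose, from 0.499 to 1.81 CPM to 2.61 to 5.76 CPM (2.14, SE 0.48, adjusted p = 0.0388). The third pi-class gene, *Gstp3*, was at 19.0 to 30.1 CPM with BSO and at 22.7 to 30.4 CPM without (-0.02, SE 0.16, adjusted p = 0.975), with overlap. The pseudogenes *Gstm2-ps1* (2.07, SE 0.23, adjusted p = 1.35e-04) and *Gstp-ps* (1.75, SE 0.28, adjusted p = 0.00423) were called as well. They share 38.2% and 66.7% of their words with functional genes, mostly with *Gstm1* and *Gstp1*, and *Gstp2* shares 52.3%, so that these counts may hold reads of the parent genes. The call of *Gstp2* was lost without any one of av15, av16, av09, av11 and av12, with a highest adjusted p of 0.180.

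Among 30 further genes that NRF2 or related factors are known to regulate, 29 had a positive fold change, with a median of 0.47. Of all 14759 genes tested, 7264 had a positive fold change. In this list 10 were called higher, where 0.488% of all genes were, and none lower. *Gclc*, *Gsr*, *Txnrd1* and *Ftl1* are among the 10 and are counted again below in the lists of GSH, thioredoxin and iron genes. The 10 fall into a few roles. Of enzymes that handle electrophiles and their conjugates, *Ephx1*, the microsomal epoxide hydrolase, was at 949, 529, 938 and 794 CPM with BSO and at 318, 276 and 365 CPM without (1.33, SE 0.20, adjusted p = 0.00216). *Aox1*, an aldehyde oxidase, was at 149, 73.0, 156 and 148 CPM with BSO and at 57.6, 43.1 and 59.8 CPM without (1.30, SE 0.19, adjusted p = 0.00216), so that 3 BSO livers lay close together and av10 stood nearer to the no-Trp livers. *Ugdh*, which makes UDP-glucuronate for glucuronidation, was at 297, 212, 317 and 323 CPM with BSO and at 117, 68.4 and 115 CPM without (1.52, SE 0.25, adjusted p = 0.00436).

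*Cbr3*, a carbonyl reductase, rose at a low level, from 0.580 to 0.691 CPM without BSO to 1.54 to 3.19 CPM with it (1.92, SE 0.40, adjusted p = 0.0263). The conjugate exporter *Abcc3* rose by 0.66 (SE 0.14, adjusted p = 0.0318). Of genes of haem and iron, *Blvrb*, a biliverdin reductase, rose by 0.93 (SE 0.21, adjusted p = 0.0383). *Ftl1*, the ferritin light chain, was at 2354 to 3632 CPM with BSO and at 1732 to 1842 CPM without (0.68, SE 0.14, adjusted p = 0.0188), with 55.3% of its words shared with copies such as *Ftl1-ps1*. *Hmox1*, haem oxygenase 1, was at 19.3 to 24.9 CPM with BSO and at 15.6 to 20.6 CPM without and did not pass (0.27, SE 0.18, adjusted p = 0.562). *Nfe2l2*, the gene of NRF2 itself, was the one member with a negative fold change (-0.15, SE 0.13, adjusted p = 0.678), and *Keap1* was at 0.22 (SE 0.08, adjusted p = 0.190).

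In a model restricted to the 7 livers, 5 of the 30 genes were called. In this list *Aox1*, *Ephx1*, *Ugdh* and *Gsr* kept the call whichever liver was left out. The calls of *Txnrd1* (without av15 or av09), *Ftl1*, *Cbr3*, *Gclc*, *Abcc3* and *Blvrb* did not hold throughout, with highest adjusted p values of 0.0918 to 0.195. For *Ftl1* and *Cbr3* these losses came without any one of av14, av15, av16, av09 and av11, for *Gclc* without av14, av15, av09, av11 or av12, for *Abcc3* without av14, av16, av09, av11 or av12, and for *Blvrb* without any liver other than av10.

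*Pir*, which encodes pirin, was called higher with the second smallest p and is in none of the pathway lists, so it was picked out after its values were seen. It was at 40.1, 35.7, 43.2 and 44.1 CPM with BSO and at 18.7, 13.6 and 17.7 CPM without, a fold change of 1.29 (SE 0.13, adjusted p = 5.84e-05). The groups did not overlap, and av10 was close to the other BSO livers.

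Promoters of the called genes were read for the core letters of the antioxidant response element, TGACNNNGC on either strand, in windows of 250 bases before to 50 bases after the start site (RefSeq, GRCm38.p6). A match was found in 13 of 73 promoters of the genes called higher (17.8%, 12 of the 59 genes with an entry), in 6 of 35 promoters of those called lower (17.1%), in 14.2% of the 13370 promoters of all genes tested and in 12.4% of all 32851 promoters. A match is a description of the letters and not a bound site. The windows of 4 of the 12 genes called higher with a match are shown, with the letters in capitals within sequence in lower case. They were not chosen by a fixed rule, and the other genes with a match, among them *9130409I23Rik*, are not shown. Those shown for *Ugdh*, *Pir* and *Txnrd1* lie before the start site and that of *Srxn1* lies in the first transcribed bases.
Ugdh, chr5:65435898-65436004, minus strand: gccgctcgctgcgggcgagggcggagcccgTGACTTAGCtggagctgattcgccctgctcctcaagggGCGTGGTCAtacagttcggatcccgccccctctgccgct
Pir, chrX:164269187-164269255, plus strand: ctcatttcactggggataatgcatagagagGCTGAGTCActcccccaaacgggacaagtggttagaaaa
Txnrd1, chr10:82859084-82859152, plus strand: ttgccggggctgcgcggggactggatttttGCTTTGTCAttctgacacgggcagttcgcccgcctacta
Srxn1, chr2:152105543-152105569, plus strand: cagtgggcaGCTAGGTCAgagtgagac
Capitals that begin with GC are the letters read on the opposite strand. The match of *Ugdh* on the coding strand begins 132 bases before the start and its second one 94 bases before, that shown for *Pir* 214 and that of *Txnrd1* 92 bases before, and that of *Srxn1* at base 29 of the transcript. *Pir* holds a second match, at base 20 of the transcript. The capitals of *Pir* also spell the AP-1 site TGACTCA on the opposite strand. Of the 8 OSR genes, *Srxn1* alone had a match in this window (1 of 10 promoters). The promoters of *Gclc*, *Gsr* and *Abcc3* were not read here.

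Of 27 tested genes of GSH synthesis, recycling and breakdown, 2 were called higher, where 0.488% of all genes were, and none lower, and the median was -0.0067. DESeq2 called 3 higher and 1 lower, and at an unadjusted p under 0.05 there were 5 higher and 2 lower (6.54% and 6.51% of all genes). *Gclc*, the catalytic subunit of the enzyme that BSO inhibits, was at 352, 233, 376 and 374 CPM with BSO and at 187, 139 and 218 CPM without (0.88, SE 0.19, adjusted p = 0.0315). Its lowest BSO liver, av10, stood just above the highest no-Trp liver. *Gclm*, the modifier subunit, was at 242, 218, 276 and 281 CPM with BSO and at 204, 178 and 232 CPM without, and the groups overlapped (0.31, SE 0.11, adjusted p = 0.208). *Gss*, the synthetase of the second step, was at 85.1, 80.9, 81.2 and 66.4 CPM with BSO and at 62.0, 52.7 and 62.7 CPM without (0.40, SE 0.11, adjusted p = 0.0785), without overlap but short of the threshold, and 15.4% of its exons overlap *Acss2*.

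*Gsr*, the reductase that returns oxidised GSH to GSH, was the other called gene, at 107, 82.1, 113 and 113 CPM with BSO and at 68.5, 42.1 and 56.8 CPM without (0.90, SE 0.15, adjusted p = 0.00507). *Txnrd1*, the cytosolic thioredoxin reductase, rose by less, from 111 to 135 CPM to 155 to 208 CPM (0.57, SE 0.11, adjusted p = 0.0137), and was the one call among 14 thioredoxins, peroxiredoxins and their partners. Both reductases draw on NADPH, and of 10 NADPH-producing enzymes edgeR called none and DESeq2 none, with none at an unadjusted p under 0.05 (6.54% of all genes were higher at that p and 6.51% lower). Among these *Tkt* had the smallest p, with a fold change of 0.22 (SE 0.14, adjusted p = 0.545).

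Of 28 tested cytochrome P450 genes of families 1 to 3, *Cyp2a5*, the coumarin hydroxylase of mouse liver, was the one called. It was at 5079.9, 2347, 4548 and 4189 CPM with BSO and at 1770, 1191 and 1518 CPM without (1.44, SE 0.21, adjusted p = 0.00216) and shares 29.4% of its words with *Cyp2a4* and others. Of 20 glucuronosyl- and sulfotransferase genes 3 were called higher and 1 lower, where 0.488% and 0.305% of all genes were. The 3 higher ones were all of the UGT2B family, whose member *Ugt2b38* had the lowest fold change of the list (-1.43, SE 0.59, adjusted p = 0.279). *Ugt2b35* was at 503, 484, 598 and 611 CPM with BSO and at 276, 172 and 280 CPM without (1.18, SE 0.16, adjusted p = 0.00126). *Ugt2b5*, which shares 35.5% of its words with other genes, mostly *Ugt2b38*, rose by 0.79 (SE 0.17, adjusted p = 0.0330) and *Ugt2b36* by 0.62 (SE 0.14, adjusted p = 0.0363). *Papss2*, which makes the sulfate donor of sulfation from ATP and sulfate, fell by 0.62 (SE 0.14, adjusted p = 0.0383). *Cyp2a5* and *Ugt2b35* kept the call whichever liver was left out. The calls of *Ugt2b5*, *Ugt2b36* and *Papss2* were each lost without any one of av15, av09 and av11, and in all 3 also without 1 or more of av16, av10 and av12, with highest adjusted p values of 0.189 to 0.202.

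A total of 6 genes of cholesterol and FA synthesis were called lower with BSO, and the fold change was negative for every gene of both lists. All 20 cholesterol synthesis enzymes had a negative fold change, with a median of -0.61 and a range of -1.72 (*Idi1*) to -0.28 (*Ebp*), and 3 were called lower where 0.305% of all genes were. DESeq2 called 5 lower, and 17 were lower at an unadjusted p under 0.05, where 6.51% of all genes were. *Acat2*, the cytosolic thiolase of the first step, was at 27.1, 29.9, 24.0 and 28.5 CPM with BSO and at 45.8, 39.8 and 42.7 CPM without (-0.64, SE 0.12, adjusted p = 0.0103). *Hsd17b7* was at 25.3, 42.6, 30.2 and 33.3 CPM with BSO and at 43.6, 62.1 and 56.1 CPM without (-0.72, SE 0.14, adjusted p = 0.0181). *Lss*, lanosterol synthase, was at 21.8 to 26.0 CPM with BSO and at 32.8 to 40.2 CPM without (-0.54, SE 0.12, adjusted p = 0.0330). None of these 3 overlapped between the groups, and for *Hsd17b7* av10 lay just under the lowest no-Trp liver.

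The members with the largest differences did not pass. *Idi1* was at 1.48, 6.10, 1.19 and 3.65 CPM with BSO and at 8.03, 7.73 and 13.7 CPM without (-1.72, SE 0.44, adjusted p = 0.0688), and *Sqle*, squalene epoxidase, was at 4.24, 19.2, 4.91 and 9.26 CPM with BSO and at 22.4, 20.3 and 41.0 CPM without (-1.62, SE 0.44, adjusted p = 0.0875). In both, av10 was the highest BSO liver by a wide margin.

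All 12 genes of FA synthesis, elongation and desaturation had a negative fold change as well, with a median of -0.69. Of these 3 were called lower, where 0.305% of all genes were. DESeq2 called 5 lower, and 10 were lower at an unadjusted p under 0.05, where 6.51% of all genes were. *Scd1*, the stearoyl-CoA desaturase, was at 50.8, 273, 60.3 and 90.9 CPM with BSO and at 132, 1810 and 872 CPM without. The ranges overlapped, since BSO liver av10 was above no-Trp liver av14, and the fold change of -2.98 (SE 0.66, adjusted p = 0.0341) was not called without any one of av15, av16, av09, av11 and av12 (highest adjusted p 0.209). *Acacb*, the acetyl-CoA carboxylase of the mitochondrial surface, was at 29.9, 48.8, 26.0 and 31.2 CPM with BSO and at 51.4, 110 and 68.2 CPM without (-1.17, SE 0.23, adjusted p = 0.0165). *Fads1*, the delta-5 desaturase, was at 256, 417, 248.6 and 338 CPM with BSO and at 504, 528 and 583 CPM without (-0.77, SE 0.15, adjusted p = 0.0181). In both the groups stayed apart, with av10 the nearest BSO liver.

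*Thrsp*, whose product stimulates lipogenesis, was at 40.5, 125, 37.3 and 63.2 CPM with BSO and at 271, 190 and 346 CPM without (-2.02, SE 0.44, adjusted p = 0.0341). It was the one called gene among 13 lipogenic and sterol regulators. *Srebf1*, of the transcription factor of FA synthesis genes, was at 109, 105, 96.8 and 137 CPM with BSO and at 240, 117 and 166 CPM without (-0.64, SE 0.28, adjusted p = 0.327), and *Srebf2*, its counterpart for sterols, was at 31.9 to 38.9 CPM with BSO and at 33.5 to 49.1 CPM without (-0.30, SE 0.15, adjusted p = 0.425). Both overlapped between the groups. Of the called lipid genes, *Acat2* kept the call whichever liver was left out, but it shares 36.8% of its words with other genes, chiefly *Acat3*. In a model restricted to the 7 livers, none of the 3 FA synthesis calls held (adjusted p 0.0726 to 0.111). The calls of *Acacb*, *Fads1*, *Hsd17b7* and *Lss* were each lost without av15, av09 or av11, with *Acacb* also lost without av12 and the other 3 without av16 (highest adjusted p 0.0869 to 0.130), and that of *Thrsp* was lost without any liver other than av10 (highest adjusted p 0.142).

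**Figure D3:**
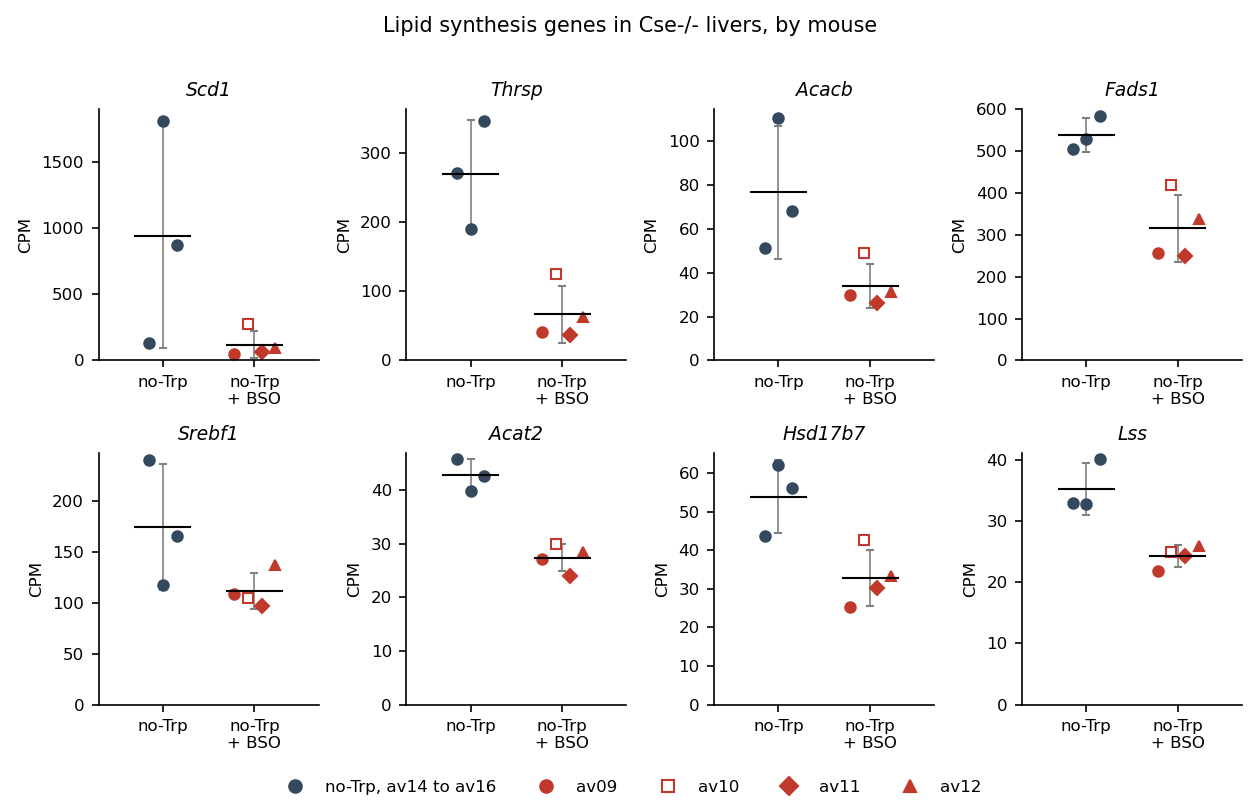
CPM (vertical axes, from 0) of 8 lipid synthesis genes in the 3 no-Trp and the 4 BSO livers, with 1 point for each mouse, the group mean as a line and the SD as a bar. *Scd1* and *Srebf1* overlap between the groups, the other 6 do not, and av10 (open square) is the highest BSO liver for *Scd1*, *Thrsp*, *Acacb*, *Fads1*, *Acat2* and *Hsd17b7*.

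The letters of the sterol regulatory element, TCACNCCAC on either strand, were found in 1 of 18 promoters of the cholesterol synthesis enzymes, that of *Hmgcs1*, and in 1.24% of all promoters. *Hmgcs1* was at 45.4 to 84.1 CPM with BSO and at 92.9 to 121 CPM without (-0.75, SE 0.26, adjusted p = 0.184).

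The 14 ISR genes that the study names showed no call by edgeR or by DESeq2, and at an unadjusted p under 0.05 there were 2 higher and none lower, where 6.54% and 6.51% of all genes were. Their median was 0.20, with 11 positive and a range of -0.66 (*Pycr1*) to 0.59 (*Asns*). The mean log2 level of the list, relative to the Cse-/- no-Trp mean, was -1.29 and -1.31 in Cse+/- control livers. It was -0.87 to -0.59 in Cse+/- no-Trp livers and -0.17 to 0.14 in the Cse-/- no-Trp livers. The reference livers thus already stood above these Cse+/- livers, and Cse-/- livers of the control diet were not analysed. *Ddit3*, of the factor CHOP, had the smallest p and was at 13.6, 12.4, 12.5 and 12.2 CPM with BSO and at 9.75, 6.98 and 9.53 CPM without (0.53, SE 0.20, adjusted p = 0.216). *Atf5* was at 568 to 749 CPM with BSO and at 398 to 541 CPM without (0.55, SE 0.25, adjusted p = 0.343). The ranges of both genes were apart, and those of the other 12 overlapped.

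*Asns*, asparagine synthetase, was at 35.8, 43.6, 38.3 and 24.3 CPM with BSO and at 20.2, 25.1 and 25.1 CPM without (0.59, SE 0.47, adjusted p = 0.645). *Chac1*, which degrades GSH, was at 5.81, 14.2, 4.49 and 2.37 CPM with BSO and at 6.30, 5.11 and 3.48 CPM without (0.39, SE 0.48, adjusted p = 0.795), so that av10 alone stood out. The hormone gene *Fgf21* was at 2.59 to 15.3 CPM with BSO and at 4.05 to 8.16 CPM without (0.14, SE 0.63, adjusted p = 0.957), and *Gdf15* was at 2.98 to 9.45 and at 1.99 to 10.4 CPM (0.19, SE 0.56, adjusted p = 0.930). *Trib3* was at 0.36 (SE 0.21, adjusted p = 0.485), *Mthfd2* at 0.57 (SE 0.38, 0.558), *Psat1* at -0.28 (SE 0.32, 0.776), *Pycr1* at -0.66 (SE 0.46, 0.587) and *Slc7a1* at -0.49 (SE 0.44, 0.704) in fold change, SE and adjusted p. The remaining *Atf6*, *Slc3a2* and *Slc1a4* lay between 0.11 and 0.21 in fold change.

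In genes next to the ISR, 18 of 20 cytosolic aminoacyl-tRNA synthetases had a positive fold change with a median of 0.23, and 1 was called. This was *Vars*, for valine, at 58.7, 46.0, 52.0 and 49.3 CPM with BSO and at 32.5, 36.6 and 42.8 CPM without (0.47, SE 0.11, adjusted p = 0.0440). A further 6 synthetases were higher at an unadjusted p under 0.05, where 6.54% of all genes were. Of 20 other ISR genes edgeR called none, DESeq2 called 1 higher and none lower, and at an unadjusted p under 0.05 there were 2 higher and 1 lower, near the 6.54% and 6.51% of all genes.

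All 18 ER chaperones and genes of the unfolded protein response had a positive fold change, with a median of 0.28. At an unadjusted p under 0.05, 9 were higher (against 6.54% of all genes) and none lower, and DESeq2 called 4 higher. Their mean log2 level, relative to the no-Trp mean, was 0.27, -0.41 and 0.14 in av14 to av16 and 0.34 to 0.67 with BSO. *Syvn1*, the ubiquitin ligase of ER-associated degradation, was the one called by edgeR, where 0.488% of all genes were called higher. It was at 220, 150, 200 and 231 CPM with BSO and at 100, 57.3 and 107 CPM without (1.18, SE 0.23, adjusted p = 0.0156). *Hspa5*, of the chaperone BiP, was at 1210, 1038, 1261 and 1526 CPM with BSO and at 772, 524 and 960 CPM without (0.74, SE 0.22, adjusted p = 0.118), without overlap. The lists of cytosolic protein quality control gave 1 call each. Of 16 heat shock and mitochondrial chaperone genes *Bag3* rose by 0.65 (SE 0.15, adjusted p = 0.0436), and of 31 proteasome subunits, 29 of them positive with a median of 0.10, *Psmd3* rose by 0.43 (SE 0.09, adjusted p = 0.0181). The calls of *Syvn1* (without av15 or av09, highest adjusted p 0.0895), *Psmd3* (without av15, av16, av09 or av11, 0.0932), *Vars* (without av14, av15, av09, av11 or av12, 0.180) and *Bag3* (without any liver other than av10, 0.166) depended on single livers.

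**Figure D4:**
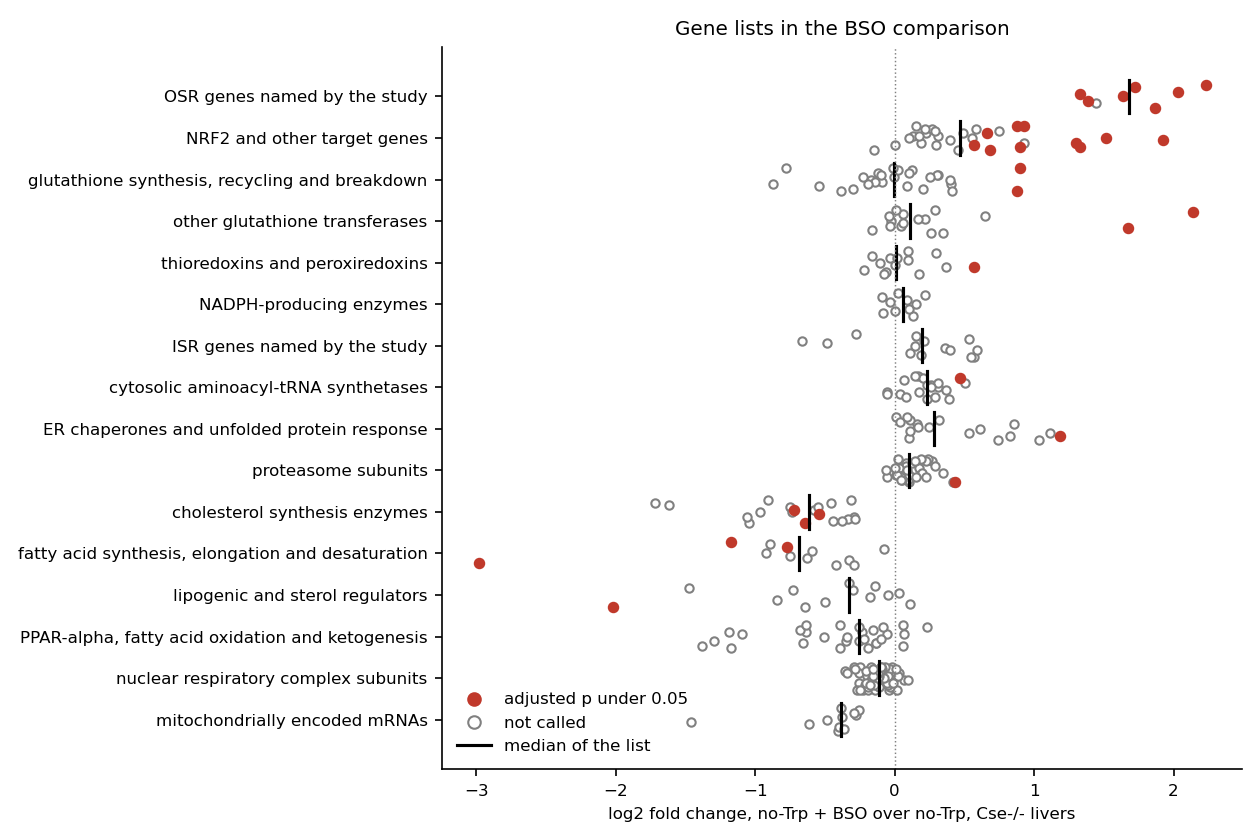
Log2 fold change of BSO over no-Trp (horizontal axis) for every tested gene of 16 lists (rows), with called genes filled, others open and the list median as a bar. The OSR genes lie wholly to the right with a median of 1.68, and cholesterol and FA synthesis wholly to the left with medians of -0.61 and -0.69.

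edgeR called no gene of the respiratory complexes. Of 73 nuclear-encoded subunits of respiratory complexes 67 had a negative fold change, the median was -0.11, and neither edgeR nor DESeq2 called one, with 11 lower (against 6.51% of all genes) and none higher at an unadjusted p under 0.05. Their mean log2 level, relative to the no-Trp mean, was 0.16, -0.06 and -0.10 in av14 to av16 and -0.12 to -0.09 with BSO, so the groups overlapped and av14 stood above the rest. The 11 mitochondrially encoded mRNAs tested were all negative with a median of -0.39. None was called by edgeR, DESeq2 called 2 lower, and 7 were lower (against 6.51%) and none higher at an unadjusted p under 0.05. Their level was 0.40, -0.04 and -0.37 in av14 to av16 and -0.68 to -0.27 with BSO, again with overlap. *mt-Nd4*, of complex I, was at 2805 to 3090 CPM with BSO and at 3189 to 4444 CPM without (-0.39, SE 0.12, adjusted p = 0.131). The share of all counts on mitochondrially encoded genes was 3.45% to 3.89% in the BSO livers and 4.03% to 4.81% in the no-Trp livers, and its part in these fold changes was not tested.

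Of 29 genes of PPARα signalling, FA oxidation and ketogenesis, 25 were negative with a median of -0.26, none was called by edgeR or DESeq2, and 10 were lower (against 6.51%) and none higher at an unadjusted p under 0.05. The median was -0.12 without av15 and -0.41 without av14. The mean log2 level of the list, relative to the no-Trp mean, was -0.26, 0.49 and -0.23 in av14 to av16 and -0.51 to -0.30 with BSO, so that av15 stood apart and the other 2 no-Trp livers lay close to the BSO livers. *Plin2*, which coats lipid droplets, had the smallest p, at 174, 278, 161 and 176 CPM with BSO and at 331, 619 and 315 CPM without (-1.10, SE 0.30, adjusted p = 0.0956). Liver av14 held traces of adipose markers, with *Cfd* at 11.1 CPM against 0.0623 to 0.281 CPM in the other 6 livers, *Adipoq* at 1.08 CPM and *Lep* at 0 in all 7, and a sum over 6 genes of 20.3 CPM there, 9.91 and 6.09 CPM in av15 and av16 and 6.97 to 10.97 CPM with BSO, and the part of this in the lipid genes was not tested.

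Among genes of iron, *Hfe2*, which encodes the hepcidin inducer hemojuvelin, fell from 80.3 to 101 CPM to 50.8 to 57.4 CPM (-0.74, SE 0.14, adjusted p = 0.0112). *Pfkfb3*, which makes fructose 2,6-bisphosphate, the activator of glycolysis, was at 42.7, 49.5, 40.6 and 45.4 CPM with BSO and at 14.7, 16.5 and 19.5 CPM without (1.40, SE 0.28, adjusted p = 0.0181), and was the one call among 12 genes of gluconeogenesis and glycolysis. *Hfe2* kept its call whichever liver was left out, whereas *Pfkfb3* lost it without av14, av15 or av09 (highest adjusted p 0.0856).

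Of the lower genes outside the lipid lists, *Aqp4*, a water channel, was at 8.86, 9.71, 10.0 and 9.42 CPM with BSO and at 20.5, 31.4 and 15.8 CPM without (-1.25, SE 0.19, adjusted p = 0.00246). *Sik1*, a salt-inducible kinase, was at 19.0 to 24.5 CPM with BSO and at 48.5, 46.4 and 59.7 CPM without (-1.25, SE 0.24, adjusted p = 0.0136). The 4 BSO livers lay close together in both. *Aqp4* kept the call whichever liver was left out, and *Sik1* lost it without av16, av09 or av11 (highest adjusted p 0.0696). *Fbf1* had the largest fold change among lower genes with a mean of at least 1 CPM and no overlap (-2.35, SE 0.47, adjusted p = 0.0193), but its no-Trp livers were at 19.7, 143 and 46.9 CPM against 10.6 to 15.3 CPM with BSO, so the size rests on av15, and without av15, av09, av11 or av12 the call was lost (highest adjusted p 0.195). *Dlec1* fell from 6.46 to 16.4 CPM to 1.60 to 3.30 CPM (-2.20, SE 0.42, adjusted p = 0.0137), a call lost without av15 or av12 (highest adjusted p 0.0777), and 3.35% of its exons overlap *Acaa1b*.

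Of immune genes, the chemokine *Cxcl13* and the cytokine *Il1b* were among the 8 largest decreases. *Cxcl13* was at 0.938 to 1.12 CPM with BSO and at 2.15 to 6.05 CPM without (-1.70, SE 0.35, adjusted p = 0.0230), and *Il1b* at 0.680 to 1.40 and at 2.24 to 3.52 CPM (-1.42, SE 0.30, adjusted p = 0.0251). Both lost the call without av09, *Cxcl13* also without av15, av11 or av12 and *Il1b* without av14 or av16 (highest adjusted p 0.180 and 0.130). *Lcp1*, lymphocyte cytosolic protein 1, was called higher (0.60, adjusted p = 0.00216) and kept the call whichever liver was left out. Of 23 acute-phase genes and 14 interferon-stimulated genes none was called in either direction. The 11 Kupffer cell and macrophage markers summed to 335 to 454 CPM with BSO and to 358 to 454 CPM without, and 10 markers of other leukocytes to 8.49 to 11.3 and to 10.1 to 11.4 CPM, with no marker at 0 in all 7 livers. *Gm43611* fell by 1.35 (SE 0.30, adjusted p = 0.0375), a call lost without any liver other than av16 (highest adjusted p 0.163), and *9130409I23Rik* rose from 2.12 to 5.96 CPM to 8.57 to 23.4 CPM (2.03, SE 0.33, adjusted p = 0.00423).

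The BSO livers did not respond alike. Liver av10 was the lowest of the 4 for 55 of the 72 genes called higher (76.4%), against 29.7% of all genes tested, and for all 7 called OSR genes. It was the highest of the 4 for 16 of the 45 genes called lower (35.6%, against 27.0% of all genes), and for 13 of 20 cholesterol synthesis enzymes and 9 of 12 FA synthesis genes. The mean log2 level of the 8 OSR genes, relative to the mean of the no-Trp livers, was 1.91, 0.95, 1.95 and 1.82 in av09 to av12 and -0.06, -0.09 and 0.14 in av14 to av16. On the same scale the cholesterol enzymes were at -1.06, -0.28, -1.02 and -0.56 with BSO and at -0.03, -0.24 and 0.28 without, and the FA synthesis genes at -1.03, -0.37, -1.02 and -0.76 with BSO and at -0.27, 0.17 and 0.10 without. In all 3 lists the groups stayed apart, with av10 the BSO liver nearest to the no-Trp livers. The counts of av10 (14240348) were close to those of av11 (14054270), and those of av09 (57986121) were the highest.

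A second comparison set the same 4 BSO livers against the 4 Cse-/- livers on the no-Cys diet, which lacked the precursor of GSH rather than the first enzyme of its synthesis. The diets of these groups also differ in tryptophan and cystine, so BSO and diet cannot be told apart here. In this comparison 210 genes were higher with BSO (1.42%) and 196 lower (1.33%). These counts depended on single livers, with 18 (without av06) to 564 (without av08) higher and 34 to 463 lower in the same fits. Of the 8 OSR genes none was higher and 2 were lower with BSO, *Gstm4* (-0.80, adjusted p = 0.0338) and *Gstm3* (-1.41, adjusted p = 0.0297), and the median was -0.47. *Nqo1* was at 21.1 to 32.9 CPM in the no-Cys livers, against 13.3 to 30.7 with BSO (-0.16, adjusted p = 0.729), and *Srxn1* at 81.5 to 107 against 57.4 to 80.8 CPM (-0.32, adjusted p = 0.168).

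Of the 14 ISR genes, 6 were lower with BSO than on the no-Cys diet and none higher, with a median of -1.02. The mean log2 level of the list, relative to the Cse-/- no-Trp mean, was 1.39, 1.43, 1.86 and 0.41 in no-Cys livers av05 to av08 and -0.21 to 0.45 with BSO, so that av08 lay within the BSO range. *Psat1*, of serine synthesis, was at 5.54 to 13.6 CPM with BSO and at 33.8 to 66.7 CPM on the no-Cys diet (-2.43, adjusted p = 5.46e-04), and *Mthfd2* at 2.48 to 5.09 and at 8.04 to 21.5 CPM (-2.10, adjusted p = 0.00445). *Asns* was at 24.3 to 43.6 and at 75.8 to 143 CPM (-1.72, adjusted p = 0.0366, 0.0601 by DESeq2), and *Pycr1*, *Atf5* and *Slc3a2* were also lower. *Psat1* and *Mthfd2* kept the call whichever of the 8 livers was left out. The other 4 did not (*Asns* lost it without any liver other than av08, *Pycr1* and *Atf5* without any other than av08 and av10, *Slc3a2* without av06, av07, av09, av11 or av12, with highest adjusted p values of 0.0786 to 0.107), and the OSR calls of *Gstm3* and *Gstm4* were each lost in 7 of 8 such fits, all but that without av08. The cholesterol enzymes were not set apart in this comparison, with 1 of 20 higher, none lower and a median of 0.09, and of the FA genes 2 of 12, *Acaca* and *Acacb*, were lower with a median of -0.27. The calls of *Acaca* and *Acacb* were each lost in 6 of 8 fits with 1 liver left out, all but those without av08 and av10, and that of the higher gene, *Ebp*, in 7, all but that without av08 (highest adjusted p 0.0829, 0.149 and 0.0949).

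Against the no-Trp livers, which both comparisons share, the median of the OSR genes was 1.68 with BSO and 2.09 on the no-Cys diet, that of the ISR genes 0.20 and 1.15, and that of the cholesterol enzymes -0.61 and -0.77. The mean log2 level of the OSR genes in Cse+/- livers, relative to the Cse-/- no-Trp mean, was -0.45, -0.56 and -0.29 on the no-Trp diet. It was 0.02 and -0.06 on the control diet and -0.08 to 0.45 on the no-Cys diet. In Cse+/- livers *Nqo1* was at 4.53 to 4.81 CPM on the no-Trp diet and at 5.95 to 6.13 CPM on the control diet. *Srxn1* was at 16.1 to 18.3 CPM in those on the control diet.

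**Figure D5:**
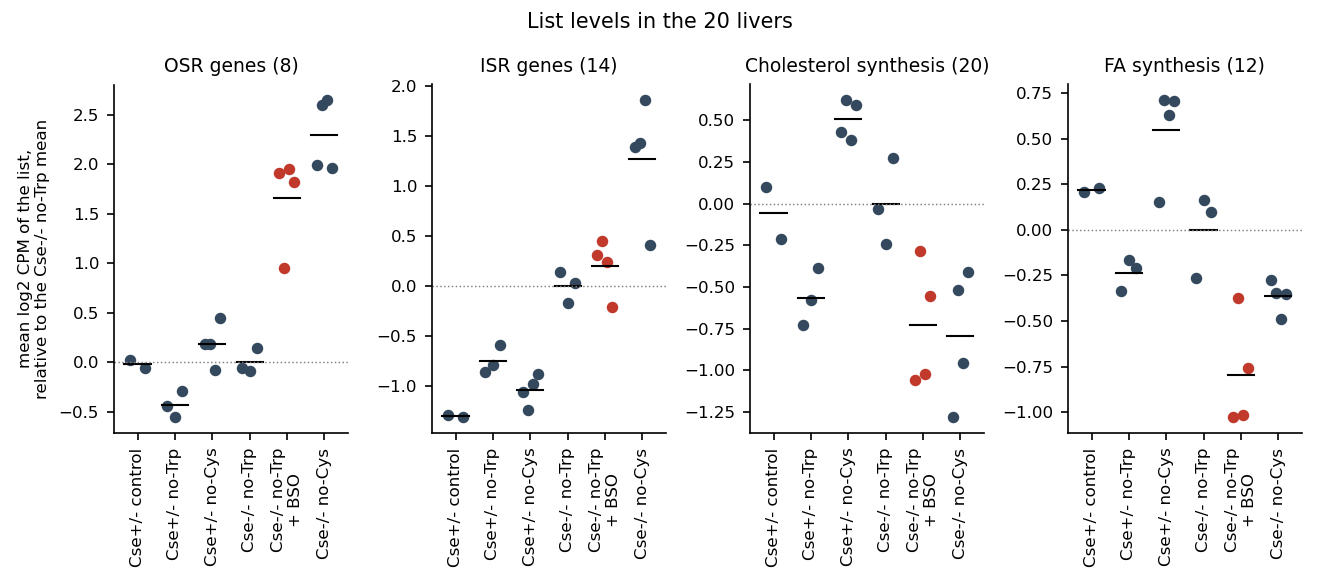
Mean log2 CPM of 4 lists in each of the 20 livers, relative to the mean of the Cse-/- no-Trp livers (vertical axes), with 1 point for each mouse and group means as lines, BSO livers in red. For the OSR genes 3 BSO livers lie between 1.82 and 1.95 and av10 at 0.95, while for the ISR genes the BSO livers lie between -0.21 and 0.45, beside the no-Trp livers.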

How the data were processed

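Libraries of poly(A) mRNA were made with a kit that does not mark strand and sequenced in pairs. Per the submitters' notes and the study's methods, the authors aligned reads to GRCm38 with Hisat2 2.1.0 and deposited whole-number counts per gene from htseq-count 0.11.0, not normalized. Which annotation release they counted on is not stated in those sources. The table has 21 columns, and 1 of them was left out because no condition is listed for that mouse. Symbols and coordinates are from GENCODE M21 (GRCm38), which holds 45229 of the 46078 genes.

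After a filterByExpr filter on low counts (minimum 10, total 15), 14759 genes remained and libraries were scaled with TMM factors. With edgeR 4.0.16 in R 4.3.3, 1 quasi-likelihood model of all 6 groups took in the 20 libraries, and two-sided p values were adjusted by the Benjamini–Hochberg method over all genes, with a threshold of 0.05. SE is the size of the log2 fold change over the root of its F value. List levels are means of log2 CPM with a prior count of 2. Lists are described by counts and medians beside those of all genes. Each mouse gave 1 library, and pairs of libraries of a group differed by more than counting noise (a chi-square per gene of at least 9.60, over genes that reached 20 counts in both together). With 1 library a mouse, differences between mice and between library preparations cannot be told apart.

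Alternatives were DESeq2 1.42.0 (Wald test), other scaling factors (RLE, upper quartile), no filter, a filter at a mean of 1 CPM, a model restricted to the groups compared, a threshold of 0.01, thinning to 11785740 counts and leaving out each library. The fits were tested on simulated data. The groups compared, gene lists and rules were chosen with earlier results of these data known. Genes named are the 8 OSR and 14 ISR genes of the study, *Srebf1*, *Srebf2*, *Gclc*, *Gclm* and *Gss*, the 8 called genes with the largest fold change in each direction with a mean of at least 1 CPM and no overlap, and from each list up to 3 called genes in each direction with the smallest p or, with no call, the gene with the smallest p. Further list members and genes outside the lists were named after their values were seen. Reads of overlapping genes on opposite strands cannot be told apart with this kit. Shared sequence is the part of all 61-base words in a gene that other genes also hold, in percent.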

Additional observations from a re-analysis of the deposited data

Results flagged for a closer look

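Among 118 sets of 4 BSO values tested for a single distant mouse (named genes and list levels), 9 (7.63%) had 1, where chance gives about 1 in 20. Liver av10 was the distant one in 6. It was low for *Gclc* (233 CPM against 352 to 376 in the other 3) and *Aox1* (73.0 against 148 to 156 CPM), low for the mean level of the OSR genes (0.95 against 1.82 to 1.95), of carboxylesterases (0.023 against 0.13 to 0.14) and of heat shock and mitochondrial chaperones (0.092 against 0.32 to 0.35), and high for *Plin2* (278 against 161 to 176 CPM). *Hfe2* was low in av11 (50.8 against 56.3 to 57.4 CPM). The mean level of cytochrome P450 genes was high in av12 (0.16 against -0.15 to -0.10), and that of nuclear respiratory subunits was high in av09 (-0.092 against -0.12 in each of the other 3). List levels are log2 CPM relative to the mean of the no-Trp livers.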

How the results depend on the processing

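The medians of the OSR (1.54 to 1.83), ISR (0.18 to 0.43), cholesterol synthesis (-0.72 to -0.56) and FA synthesis genes (-0.79 to -0.61) kept their sign under the alternatives run, and moved by less than the spread between mice. The number of calls moved more. Against 72 higher and 45 lower genes, the counts were 22 and 6 at an adjusted p under 0.01, 196 and 160 with DESeq2 (115 of its 356 calls shared with edgeR) and 136 and 151 with no filter, and 42 and 33 when only the groups compared were fitted. That fit shared 52 of the 117 calls. All 117 had the same direction in it, which is no independent support because the livers compared were the same. Its calls fell from 7 to 6 for OSR and from 10 to 5 for NRF2 target genes. They fell from 3 to 2 for cholesterol and from 3 to 0 for FA synthesis genes. For thioredoxins (*Txnrd1*), synthetases (*Vars*), proteasome subunits (*Psmd3*) and iron genes they fell from 1 to 0 each. *Gclc* (0.0729), *Gsta2* (0.0561), *Fbf1* (0.0581), *Cxcl13* (0.0664) and *Il1b* (0.0552) also missed an adjusted p of 0.05 there. Leaving out each library in turn gave 24 (without av09) to 100 (without av10) higher and 12 (without av09) to 72 (without av10) lower genes. Against the no-Cys livers, DESeq2 gave 437 higher and 441 lower genes, and leaving out each library gave 18 (without av06) to 564 (without av08) higher and 34 (without av06) to 463 (without av08) lower. The cause was not tested. Signs turned for 5 ISR genes, none of them called. With single libraries left out, *Psat1* ran from -0.54 to 0.36 (positive without av15), *Slc1a4* from -0.20 (without av15) to 0.42 and was at -0.0054 without av11, *Fgf21* from -0.50 (without av10) to 0.43 and was at -0.09 without av15, *Gdf15* from -0.19 (without av15) to 1.11 and was at -0.06 without av16 and -0.08 without av10, and *Chac1* from -0.23 (without av10) to 0.69. No paired analysis was possible because the count columns carry mouse numbers and not the replicate numbers of the labels. Depth was at least 14054270 counts in the 7 livers, and the level of expression at which it limits calls was not tested. Thinning all libraries to 11785740 counts gave 74 higher and 42 lower genes, of which 96 were among the 117 calls.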

Other observations

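Genes outside the pathway lists made up 43 of the 72 higher and 35 of the 45 lower calls, and the following were picked after their values were seen. *Alas1*, the first enzyme of haem synthesis, was higher (383, 552 and 344 CPM without BSO, 924, 805, 853 and 687 CPM with it, log2 fold change 0.94, SE 0.19, adjusted p = 0.0181). The haem transporter *Slc48a1* was at 55.7 to 64.8 CPM without BSO and at 90.2 to 129 CPM with it (0.86, SE 0.13, adjusted p = 0.00216). *Creg1*, a lysosomal glycoprotein, was at 423 to 499 CPM without and at 647 to 892 CPM with BSO (0.81, SE 0.13, adjusted p = 0.00423), and *Mvp*, the major vault protein, at 38.0 to 46.9 and at 57.8 to 82.1 CPM (0.68, SE 0.12, adjusted p = 0.0101). *Slc48a1* and *Creg1* kept the call whichever liver was left out, *Mvp* lost it without av15 (adjusted p 0.0686), and *Alas1* lost it without av14, av16, av09 or av11 (highest adjusted p 0.0819).

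In the clock, *Nr1d1*, the repressor REV-ERBα, was at 97.8, 108, 85.8 and 84.9 CPM with BSO and at 42.5, 45.8 and 48.9 CPM without (1.04, SE 0.20, adjusted p = 0.0136). Exons of *Thra* on the opposite strand overlap 8.55% of *Nr1d1*. *Nr1d1* lost its call without av14, av15 or av09 (highest adjusted p 0.0601). The hour of collection of each mouse is not stated in the sources used here.

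*Mup2*, a major urinary protein of a family of near-identical copies, had the largest fold change of the called genes (-7.72, SE 1.71, adjusted p = 0.0363), yet no-Trp liver av15 was at 1.25 CPM, inside the 0.865 to 1.45 CPM of the BSO livers, while av14 and av16 were at 463 and 275 CPM. Its call was lost without any liver other than av15 (highest adjusted p 0.144).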
